A study of Mus musculus with 231 samples.

Results

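The miR-130 and miR-301 family was followed in peripheral blood mononuclear cells (PBMC) of mice that carry the leukemogenic Cbfb-MYH11 (CM) fusion. Its members were taken by name as the 3p arms of 4 hairpins, mmu-miR-130a-3p, mmu-miR-130b-3p, mmu-miR-301a-3p and mmu-miR-301b-3p (written below without the mouse prefix), out of 1863 mature miRNAs in the training count table. All 4 were present in every deposited table. The CM mice were C57BL/6 animals with a conditional knock-in allele (Cbfb56M/+) and Mx1-Cre, a Cre that interferon switches on in blood-forming and some other cells. They and the Ctrl littermates received poly(I:C) at 14 mg/kg for 7 doses, starting at 6-8 weeks of age, so the interferon stimulus was shared by both arms. Every CM mouse was labelled CHW, and the genotype labels of Ctrl mice were HW, CW and WT. The labels do not explain these codes, and the study's methods allow littermates that carry the knock-in allele without Cre. In the training set, blood was drawn from 7 CM and 7 Ctrl mice at month 0, before induction, and then monthly up to month 10 or until a CM mouse became moribund, which gave 53 CM and 76 Ctrl libraries. By their labels, 4 of the CM training mice were female and 3 male, and 2 of the Ctrl training mice were female and 5 male. A separate validation set held 60 CM and 42 Ctrl libraries of 10 CM and 6 Ctrl mice by their labels.

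MiRNAs repress messenger RNAs by pairing, mostly through the seed at bases 2 to 8, with sites in the 3' untranslated region. miRNAs of one seed can therefore share targets, and the miR-130 and miR-301 family is usually treated as one unit for this reason. PBMC are a mixture of lymphocytes, monocytes and, in leukemic animals, circulating blasts and other immature cells. In such a mixture, fewer cells of a type and less of a miRNA per cell cannot be told apart.

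The mature sequences are shown because the shared seed defines the family while the 3' part separates its members. RefSeq (GRCm38.p6) held 3 of the 4 members, and bases 2 to 8 are in capitals.
miR-130a-3p: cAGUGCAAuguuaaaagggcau
miR-130b-3p: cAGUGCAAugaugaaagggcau
miR-301a-3p: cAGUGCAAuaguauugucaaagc
miR-301b-3p is named only. Over the first 22 bases miR-130a-3p and miR-130b-3p differed at 2 positions, the first of them at base 11, whereas miR-130a-3p and miR-301a-3p differed at 10, starting at base 10. On GRCm38.p6 the mature miR-130a-3p lies on the minus strand at chr2:84741116-84741137, miR-130b-3p on the minus strand at chr16:17124071-17124092 and miR-301a-3p on the plus strand at chr11:87113054-87113076. The hairpins Mir130b (chr16:17124061-17124142) and Mir301b (chr16:17124400-17124496) lie on the same strand with 257 bases between them. In the mm9 annotation (GENCODE M1), both of these hairpins fell within an intron of the protein-coding gene 2610318N02Rik, Mir301 fell within an intron of Fam33a, and Mir130a overlapped no other annotated gene.

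Of 1679 mature names in the RefSeq table, 7 carried this seed. Besides the 3 members these were miR-130c, miR-721, miR-6341 and miR-6389, whose sequences show how little beyond the seed they need to share.
miR-130c: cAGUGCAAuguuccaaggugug
miR-721: cAGUGCAAuuaaaagggggaa
miR-6341: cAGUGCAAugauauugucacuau
miR-6389: cAGUGCAAuguuaaacuuugc
In PBMC the other carriers in the count table were close to undetected. miR-721 had 44 reads over all training libraries, miR-6341 had 3 and miR-6389 had 2. miR-130c was absent from the count table but present in both deposited CPM tables, and its level there was not examined. In the count table, the reads with this seed were therefore almost entirely those of the 4 members. A second group, miR-148a-3p, miR-148b-3p and miR-152-3p, holds the first 6 letters of the seed 1 base further along, in capitals below, and is compared further on.
miR-148a-3p: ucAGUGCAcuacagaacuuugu
miR-148b-3p: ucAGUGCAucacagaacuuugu
miR-152-3p: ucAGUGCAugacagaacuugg

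Libraries of the training set held 1792809 to 7958411 miRNA counts (median 4437464), and no library had a member at 0. Levels are given as CPM, the library's counts scaled to a common total with TMM factors, computed from the deposited counts. Because the members are 22 or 23 bases long and each read covers a whole miRNA, CPM can be set side by side between them, apart from differences in ligation. miR-130a-3p was the most abundant member, with a median of 399 CPM over all training libraries (lowest 16.5, highest 909). miR-130b-3p followed at 174 CPM (39.3 to 264), miR-301a-3p at 122.99 CPM (39.8 to 235) and miR-301b-3p at 20.0 CPM (5.16 to 40.5). In the median Ctrl library miR-130a-3p made up 55.9% of the family's CPM. miR-130a-3p lay above miR-130b-3p in 75 of 76 Ctrl libraries, miR-130b-3p above miR-301a-3p in 73, and miR-301a-3p above miR-301b-3p in all 76. In CM libraries the same order held in 49, 44 and 53 of 53. The deposited CPM table gave miR-301a-3p a lower median (71.4 CPM), 0.58 times the value from counts, while the ratio for miR-130a-3p was 1.06, so the distance between miR-301a-3p and miR-130b-3p differed between the deposited tables.

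**Figure D1:**
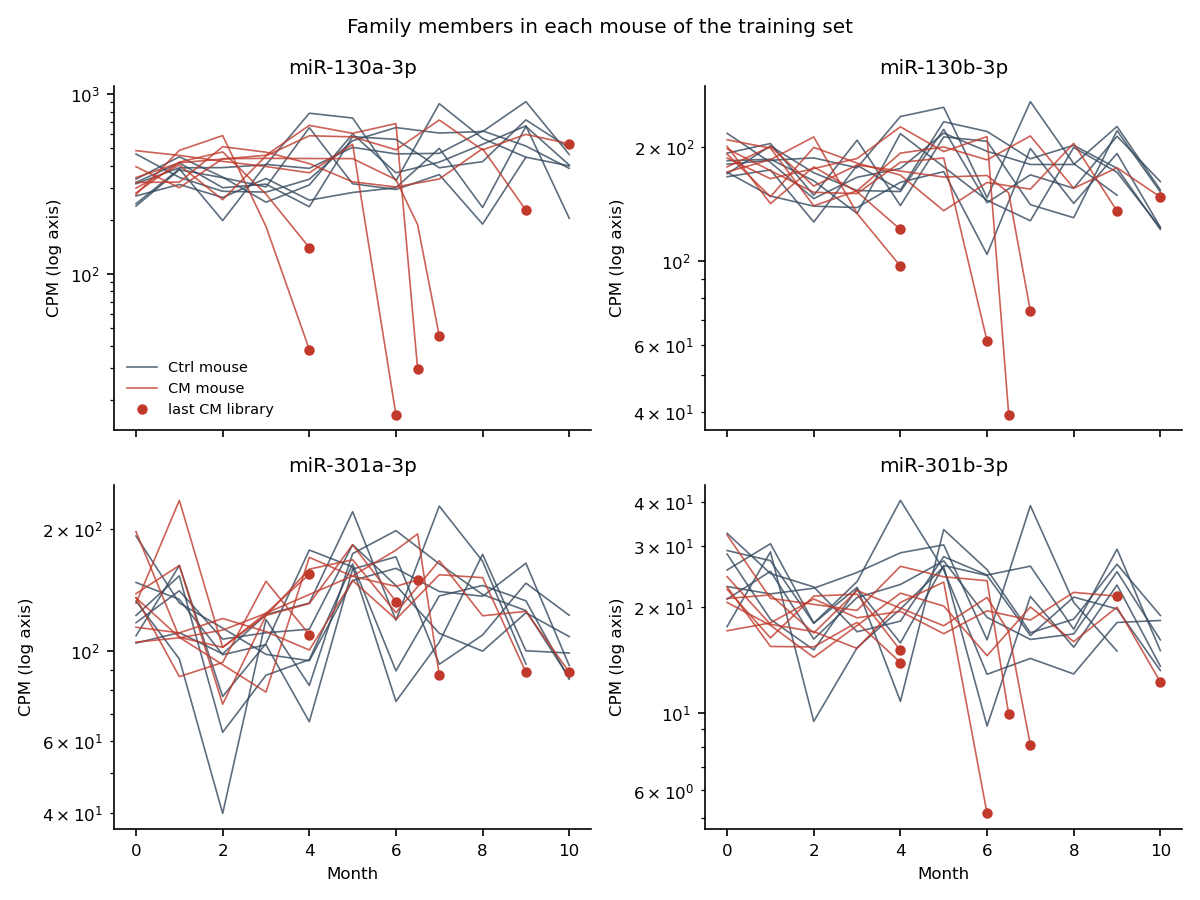
CPM (log axis) of each family member against month in the 7 CM (red) and 7 Ctrl (dark) training mice, 1 line per mouse, with a dot on the last library of each CM mouse. The last miR-130a-3p values of 5 CM mice, 16.5 to 140.4 CPM, lie below every earlier CM library, of which the lowest was 184 CPM, while those of miR-301a-3p stay within the Ctrl range.

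The 5p arms of the hairpins were far scarcer. Over all training libraries the median was 47.5 CPM for miR-130b-5p, 3.83 for miR-301a-5p, 1.19 for miR-130a-5p and 0.37 for miR-301b-5p, the last of these at 0 in 27 libraries. The 3p arm was thus the main product of all 4 hairpins. In Ctrl libraries the log2 ratio of 3p to 5p was 1.82 ± 0.44 (SD, n = 76) for miR-130b and 4.69 ± 0.65 for miR-301a.

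Before induction the arms did not differ detectably for any member. miR-130a-3p was at 344 ± 74.4 CPM in CM mice and 314 ± 76.95 in Ctrl mice (SD, n = 7 each). miR-130b-3p was at 191 ± 13.2 and 184 ± 17.6 CPM, miR-301a-3p at 136.7 ± 29.3 and 132.3 ± 30.1, and miR-301b-3p at 23.02 ± 4.65 and 25.3 ± 5.14. The adjusted p-values at month 0 ran from 0.71 to 0.98 (edgeR quasi-likelihood test, Benjamini-Hochberg adjustment over all tested miRNAs), and 0.209% of the 478 miRNAs tested were called at an adjusted p under 0.05. None of the 4 members reached an unadjusted p under 0.05, and DESeq2 called none.

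After induction, the first member to differ was miR-301b-3p. At month 1 it was at 21.2, 21.7, 16.4, 17.9, 15.5, 17.8 and 18.1 CPM in the CM mice 3334, 3336, 3338, 3341, 3357, 3368 and 3370. The Ctrl mice 3335, 3339, 3340, 3342, 3346, 3349 and 3350 had 25.4, 27.2, 24.996, 28.8, 30.4, 18.5 and 21.9 CPM. Of the 7 CM values, 5 were below the lowest Ctrl value. The log2 fold change was -0.49 ± 0.15 (SE) with an adjusted p of 0.023, the only call among the members in a month in which 27.5% of 472 miRNAs were called, 12.9% as lower in CM. The call was lost in 9 of the alternative fits, in all of which the value stayed below 0, at -0.51 to -0.31. With sex as a covariate it was -0.35 (adjusted p = 0.15), in a fit that called 17.7% of all miRNAs. With the G number of the library titles as a covariate it was -0.31 (adjusted p = 0.43), but only 1.15% of all miRNAs were called in that fit. At the same month all 5 erythroid miRNAs of the marker list were higher in CM mice, with summed levels of 53345 to 621976 CPM against 28288 to 69645 in Ctrl mice, and the part of this in the miR-301b-3p difference was not tested. The change from month 0 to month 1 did not differ detectably between the arms for miR-301b-3p (interaction -0.22 ± 0.21, adjusted p = 0.54), nor did that of any other member by edgeR (8.46% of 520 miRNAs were called, and 1.49% with each mouse as a block, while 0 members reached an unadjusted p under 0.05 and DESeq2 was not run). With each mouse as a block the values were -0.066 for miR-130a-3p and -0.11 for miR-301a-3p, against 0.035 and 0.060 without it, so the sign of these small differences was not fixed. From month 0 to month 3 again no member was called by edgeR (adjusted p = 0.68 to 0.99, 0 at an unadjusted p under 0.05), where 2.33% of 515 miRNAs were.

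miR-130a-3p lay the other way at month 2. CM mice 3336, 3338, 3341, 3357, 3368 and 3370 had 438, 589, 423, 478, 259 and 511 CPM, against 346, 302, 289, 266, 343, 198 and 391 CPM in the Ctrl mice in the order given above. Of 6 CM values, 5 were above the highest Ctrl value and that of mouse 3368 was the exception. The log2 fold change was 0.55 ± 0.19 with an adjusted p of 0.066, in a month in which 13.5% of 481 miRNAs were called. It was 0.73 with an adjusted p of 0.012 in edgeR without mouse 3368, and 0.55 with an adjusted p of 0.031 in DESeq2. With 1 mouse at a time left out, 9.11% to 26.6% of all miRNAs were called at this month, and DESeq2 called 97 of 481. At month 3 the difference was 0.29 ± 0.21 (adjusted p = 0.35; 22% of 455 miRNAs called). There, 4 of 7 CM mice lay above all Ctrl mice, whereas mouse 3338 lay below them at 184 CPM. Counts summed per mouse over months 1 to 3 gave 0.33 with an adjusted p of 0.0044 in edgeR for miR-130a-3p. The alternative fits of the summed months called 9.37% to 37.3% of all miRNAs. Cell markers differed in the same months. Of the erythroid list 2 of 5 were higher in CM mice at month 2 (summed level 14755 to 50334 CPM, against 13146 to 28381 in Ctrl mice) and 4 of 5 at month 3 (47917 to 97017 CPM, against 37370 to 62706). Of the vessel wall list 1 of 2, miR-145a-5p, was lower at month 2 (-1.02, adjusted p = 0.017 in edgeR), with the list at 175 to 413 CPM against 231 to 743. At month 3, 1 of 2 tested miRNAs of the myeloid list, miR-223-3p, was higher (0.74, adjusted p = 0.012 in edgeR). miR-223-5p was not called (0.25, adjusted p = 0.29 in edgeR). Of the lymphocyte list 1 of 4, miR-150-5p, was lower (-0.70, adjusted p = 0.022 in edgeR). Not called were miR-150-3p at 0.025, miR-342-3p at -0.22 and miR-342-5p at -0.33 (adjusted p = 0.93, 0.46 and 0.39 in edgeR). The myeloid list was at 5191 to 11772 CPM against 4359 to 7261, and the lymphocyte list at 24147 to 55032 CPM against 53089 to 92081. The part of these markers in the miR-130a-3p values was not tested.

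Months 4 and 6 contain the last libraries of 3 CM mice, and the spread of miR-130a-3p was wide there. Its SD at month 4 was 246 CPM around a mean of 369 in CM mice (n = 6) and 210.4 around 424 in Ctrl mice (n = 7). At month 6 it was 248 around 367 (n = 5) and 139.2 around 425 (n = 7). At month 5, with no last library, it was 114.4 around 495 (n = 5) in CM and 160.5 around 511 (n = 7) in Ctrl mice. No member was called at months 4, 5 or 6, where 0.837%, 0% and 0% of 478, 505 and 444 miRNAs were called. At months 5 and 6 the unadjusted p in edgeR was under 0.05 for 21.6% and 6.98% of the miRNAs tested, and DESeq2 called 21 and 0. miR-301b-3p at month 5 was the member nearest to a call. It was at 16.8 to 24.5 CPM in 5 CM mice and at 25.6 to 33.4 CPM in 7 Ctrl mice (log2 fold change -0.41 ± 0.15, unadjusted p = 0.017 in edgeR, adjusted p = 0.17). No G number held libraries of both arms at month 4, and 1 held both at months 3 and 6, so at those months arm and G number can hardly be told apart.

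Over months 1 to 6, with counts summed per mouse, no member was called (0 of 4; 1 at an unadjusted p under 0.05, 1 by DESeq2), while 27.1% of 775 miRNAs were. The log2 fold changes were 0.08 ± 0.13 for miR-130a-3p, -0.05 ± 0.09 for miR-130b-3p, 0.07 ± 0.09 for miR-301a-3p and -0.25 ± 0.11 for miR-301b-3p (adjusted p = 0.70, 0.70, 0.58 and 0.092). DESeq2 gave miR-301b-3p an adjusted p of 0.040 at -0.25, where DESeq2 called 234 of 775 miRNAs. The members' median was 0.01, beside 0.02 over all miRNAs tested.

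**Figure D2:**
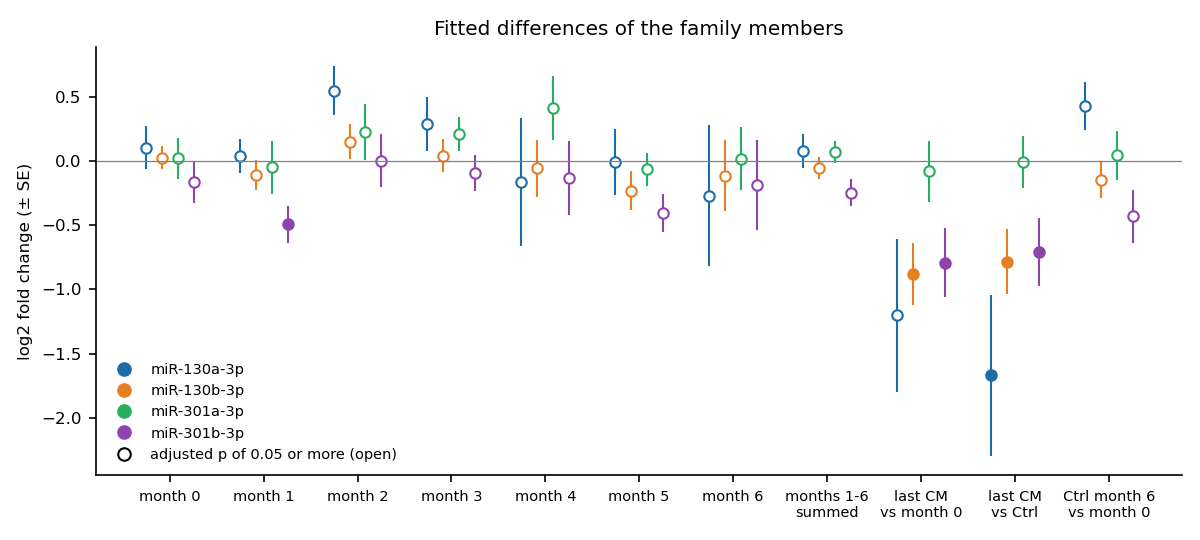
Log2 fold change with SE of each member in the monthly comparisons of CM with Ctrl, the sum of months 1 to 6, the last CM library against month 0 and against Ctrl of the same months, and Ctrl month 6 against month 0. Filled points have an adjusted p under 0.05, and they are miR-301b-3p at month 1 (-0.49) and miR-130b-3p, miR-301b-3p and, against Ctrl, miR-130a-3p (-1.67) in the last CM libraries.

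Whether the CM effect differed between members was tested on the mean log2 ratio of each pair per mouse over months 1 to 6, by exact permutation (two-sided) of the arms of 14 mice, for 6 pairs. The log2 ratio of miR-301a-3p to miR-301b-3p was 2.72 ± 0.19 (SD, n = 7) in CM mice and 2.41 ± 0.11 (n = 7) in Ctrl mice. This difference of 0.31 passed (exact p = 0.0029, adjusted p = 0.017), but was 0.19 with an adjusted exact p of 0.20 on the deposited CPM, in which miR-301a-3p has fewer reads. For the neighbours miR-130b-3p and miR-301b-3p, the ratio was 3.10 ± 0.10 in CM and 2.97 ± 0.10 in Ctrl mice (exact p = 0.028, adjusted p = 0.084). The other 4 pairs had adjusted exact p-values of 0.089 to 0.79. Of these, miR-130b-3p to miR-301a-3p was -0.18 in CM against Ctrl mice, and it passed at -0.25 without mice 3334 and 3335 (adjusted exact p = 0.013). Over months 1 to 3 only, 4 pairs passed. The log2 ratio of miR-130a-3p to miR-130b-3p was then 0.24 higher in CM than in Ctrl mice, and that of miR-130a-3p to miR-301b-3p 0.42 higher (adjusted exact p = 0.0023 for both).

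The last library of each CM mouse held the clearest departure. In the order of months, miR-130a-3p ran through 344, 416, 458, 671, 606 and 687 CPM in mouse 3334, which had no library at month 2, and then stood at 29.7 CPM at the point labelled T6p5, read here as month 6.5. Mouse 3341 went from 526.5 CPM at month 5 to 16.5 CPM at month 6, a count of 48 reads. Mouse 3338 had 589 CPM at month 2, 184 at month 3 and 38.1 at month 4. These 3 courses ended in the lowest values of the training set.
Mouse 3336 fell in steps from 335 CPM at month 6 to 188 at month 6.5 and 45.3 at month 7. In mouse 3357 the level was 278 CPM at month 3 and 140.4 at month 4. The remaining mice, 3368 and 3370, ended at 530.5 CPM at month 10 and 227 CPM at month 9, within the Ctrl range of 204 to 909 CPM at the same months. Both were male, as was mouse 3334, while the other 4 CM mice were female. The part of sex in this split of the CM mice was not tested. In the 46 CM libraries that were not the last of their mouse, miR-130a-3p was never below 184 CPM, and 5 of the 7 last libraries were below that value.

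miR-130b-3p was lower in the last libraries as well, also in mouse 3368, where miR-130a-3p was higher than at month 0 (530.5 against 301 CPM). From month 0 to the last library it went from 187 to 39.3 CPM in mouse 3334, 178 to 73.9 in 3336, 172 to 97.1 in 3338, 198 to 61.6 in 3341, 201 to 121.3 in 3357, 209 to 148 in 3368 and 192 to 135.7 in 3370. All 7 CM mice were lower. The log2 fold change was -0.88 ± 0.24 (adjusted p = 0.010), in a comparison in which 39% of 446 miRNAs were called and 15.9% were called lower. miR-301b-3p, from the same intron, went from 32.2 to 9.90 CPM in mouse 3334, 21.2 to 8.08 in 3336, 22.5 to 15.1 in 3338, 24.5 to 5.16 in 3341, 22.9 to 13.9 in 3357 and 20.7 to 12.3 in 3368. Only mouse 3370 did not follow, at 17.2 and 21.5 CPM. The log2 fold change was -0.79 ± 0.27 (adjusted p = 0.031), and with each mouse as its own block it was -0.86 (adjusted p = 0.068). The call was also lost without mouse 3334, 3336, 3341 or 3357 (adjusted p = 0.065 to 0.087).

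For miR-130a-3p the fold change depended on mouse 3368. The mean was 344 ± 74.4 CPM at month 0 and 147 ± 185 CPM in the last libraries (SD, n = 7 each), and the log2 fold change of -1.20 ± 0.60 was not called (adjusted p = 0.12). In the paired fit, with each mouse as its own block, it was -2.04 with an adjusted p of 0.042, and without mouse 3368 it was -2.07 with an adjusted p of 0.0059. On the log2 scale of the deposited CPM (plus 1) it was -1.95 with an adjusted p of 0.012 in limma. miR-301a-3p, the remaining member, was at 136.7 ± 29.3 CPM at month 0 and 115.9 ± 29.6 CPM in the last libraries, with values of 149.7, 87.4, 155, 132.4, 109.7, 88.7 and 88.6 CPM in mice 3334, 3336, 3338, 3341, 3357, 3368 and 3370. Its log2 fold change was -0.08 ± 0.24 (adjusted p = 0.79). All 4 members had passed the filter on low counts, 2 of them were called lower, and their median of -0.84 stood beside -0.06 over all miRNAs tested. With library totals in place of TMM factors, that median over all miRNAs was -0.25, and the members kept their directions at -1.22, -1.02, -0.33 and -0.95 (adjusted p = 0.16, 0.014, 0.22 and 0.026 in edgeR, in the order miR-130a-3p, miR-130b-3p, miR-301a-3p, miR-301b-3p).

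**Figure D3:**
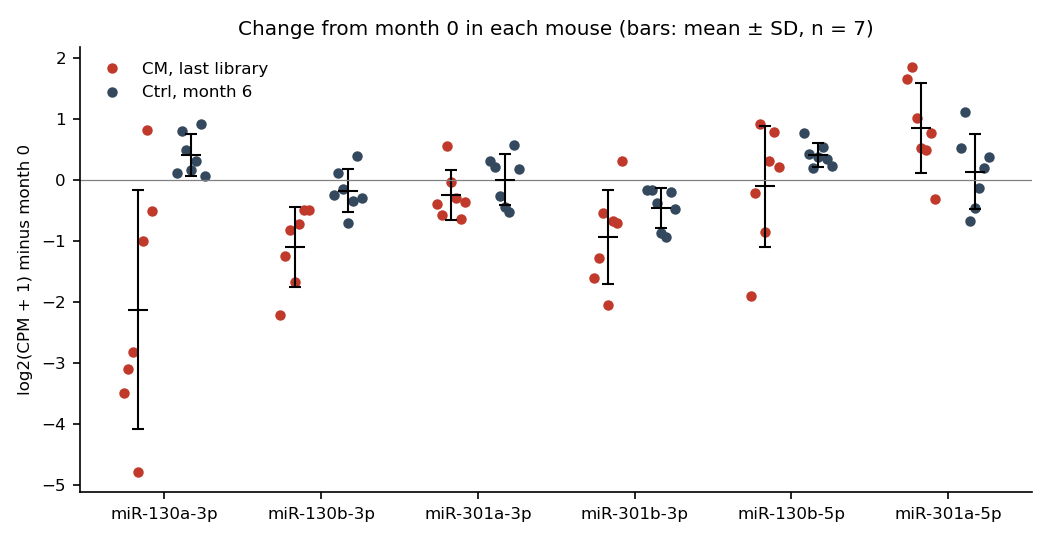
Change in log2(CPM + 1) from month 0 to the last library of each CM mouse (red) and to month 6 of each Ctrl mouse (dark), with mean ± SD (n = 7 each). miR-130a-3p spans -4.80 to 0.82 in CM mice while all 7 Ctrl mice lie above 0, and miR-301a-5p was higher in 6 of 7 CM mice.

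The order of levels within the family was another one in several of these libraries. miR-301a-3p made up 65.5% of the family's CPM in the last library of mouse 3334 and 61.4% in that of 3341, against a median of 16.4% in Ctrl libraries. The ratio of miR-130a-3p to miR-130b-3p was 0.27 to 0.76 in mice 3334, 3336, 3338 and 3341, and 3.59 in mouse 3368. The differences between members in the change from month 0 were put to exact sign-flip permutation tests over the 7 CM mice, a test chosen after the values had been seen. miR-130b-3p fell further than miR-301a-3p in 6 of 7 mice, by 0.85 ± 0.77 (SD) on the log2 scale (exact p = 0.047). After adjustment over 6 pairs no difference passed (adjusted exact p = 0.12 to 0.36; the smallest possible unadjusted p was 0.016).

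For miR-130a-3p, Ctrl mice did not show this course. From month 0 to month 6, miR-130a-3p was higher in 7 of 7 Ctrl mice, by 0.40 ± 0.34 in log2(CPM + 1) (SD), which gave an edgeR log2 fold change of 0.43 ± 0.19 that was not called (adjusted p = 0.11). miR-301b-3p was lower in 7 of 7 at -0.43 ± 0.21 (adjusted p = 0.15), and miR-130b-3p was lower in 5 of 7. Compared with the library before, both were lower in 7 of 7 Ctrl mice at month 6. No member was called in this comparison (1 of 4 at an unadjusted p under 0.05; DESeq2 not run), while 20.5% of 474 miRNAs were (11.3% with each mouse as a block). Against Ctrl counts summed over months 4, 6, 7, 9 and 10, the last CM libraries were lower by edgeR for miR-130a-3p at -1.67 ± 0.63 (adjusted p = 0.0497), miR-130b-3p at -0.78 ± 0.25 (adjusted p = 0.027) and miR-301b-3p at -0.71 ± 0.26 (adjusted p = 0.049). For miR-301a-3p the value was -0.01 ± 0.20 (adjusted p = 0.97). In this comparison 34.7% of 620 miRNAs were called, 13.1% as lower. It shares its CM libraries with the comparison against month 0. Each CM mouse entered with 1 library and each Ctrl mouse with a sum over months, so the arms were not matched in month or in replication. The miR-130a-3p call did not survive leaving out any one of mice 3334, 3336, 3338, 3341 and 3357 (adjusted p = 0.054 to 0.074), although the fold change stayed at -1.54 to -1.71, and that of miR-130b-3p was lost without mouse 3336 (adjusted p = 0.053). The miR-301b-3p call was lost without mouse 3334, 3336, 3341 or 3357 (adjusted p = 0.061 to 0.088).

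Libraries of the training titles carry a G number, which the labels do not explain, and each last CM library shared its number with Ctrl libraries. Within that number, the last CM library lay below every Ctrl library for miR-130a-3p in 5 of 7 mice, for miR-130b-3p in 6, for miR-301b-3p in 4 and for miR-301a-3p in 2. For example, mouse 3341 at 16.5 CPM stood against 11 Ctrl libraries of G number 3 at 189.6 to 720.0 CPM. These Ctrl libraries were not matched by month, and some came from the same mouse. The last CM libraries fell in G numbers 1, 3 and 6 only, so the same Ctrl libraries served for several CM mice. Other cell markers moved with the last libraries as well. Their counts stand beside 39% of 446 miRNAs called against month 0, 15.9% as lower. Against Ctrl of the same months 34.7% of 620 were called, 13.1% as lower. Of the 4 mature lymphocyte miRNAs, which include miR-150-5p, 3 were lower than at month 0, and their summed level was 9572 to 58529 CPM in the last libraries and 29799 to 69761 at month 0. Against Ctrl of the same months, 0 of the 4 were called by edgeR and 0 reached an unadjusted p under 0.05 (DESeq2 was not run). Of the erythroid list 2 of 5 were higher and 1 lower than at month 0 (29305 to 83105 CPM, against 40495 to 136213). Against Ctrl of the same months, 0 of 5 were called higher and 1 lower by edgeR. In Ctrl mice, 2 of 5 were called higher at month 6 than at month 0, where 20.5% of 474 miRNAs were called. Of the myeloid list 1 of 2 tested, miR-223-3p, was lower than at month 0 (2016 to 6311 CPM, against 5390.3 to 39994). miR-223-3p was also lower in Ctrl mice from month 0 to month 6 (-1.36, adjusted p = 3.4e-05 in edgeR, 7 of 7 mice). Against Ctrl of the same months it was not called (-0.27, adjusted p = 0.34), whereas miR-511-3p of the same list was higher (1.54, adjusted p = 0.025 in edgeR). The platelet list was at 3.10 to 18.3 CPM in sum, with 1 of 4 markers at 0, against 1.37 to 12.9 at month 0. The vessel wall list, miR-143 and miR-145a, spanned 19.9 to 1587 CPM (median 73.3) with 0 of 2 called. Its median was 469 CPM at month 0 (274 to 746) and 745 in Ctrl of the same months (241 to 1541). Against those Ctrl libraries miR-143-3p was at -1.11 ± 0.78 and miR-145a-5p at -1.46 ± 0.68 (unadjusted p = 0.17 and 0.049, adjusted p = 0.26 and 0.097 in edgeR). The part of these cell types in the lower levels of the members was not tested.

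Among the last CM libraries, those with low miR-130a-3p were those with high miR-126a-3p, a miRNA of hematopoietic stem cells that maintains their quiescence. In the last libraries of mice 3334, 3336, 3338, 3341 and 3357, miR-126a-3p was at 2552, 1412, 1861, 4584 and 1377 CPM. It was at 218 CPM in mouse 3368 and 464 CPM in mouse 3370, both with miR-130a-3p above 200 CPM. At month 0 it had been at 107.8 to 186 CPM in the 7 CM mice. In the library before the last, mice 3338 and 3357 already had 1475 and 1346 CPM of miR-126a-3p, with miR-130a-3p at 184 and 278 CPM. At months 1 and 2, miR-126a-3p was already higher in CM than in Ctrl mice, at 1.68 ± 0.17 and 1.58 ± 0.29 (adjusted p = 1.1e-05 and 0.0035 in edgeR). In those months miR-130a-3p was not lower in CM mice, at 0.04 ± 0.13 and 0.55 ± 0.19 (adjusted p = 0.85 and 0.066 in edgeR). Over the 53 CM libraries Spearman's rho between the miRNAs was -0.33, and over the 76 Ctrl libraries 0.49, given as a description since libraries of one mouse share that mouse. Among 14 miRNAs listed for stem and progenitor cells, 3 were higher in the last libraries than at month 0 (miR-126a-3p, miR-126a-5p and miR-196b-5p, at 3.95, 4.09 and 3.31) and none was called lower by edgeR. Of all 446 miRNAs tested there, 39% were called, 15.9% as lower. Against Ctrl of the same months, those 3 were higher and 4 were lower, namely miR-125b-5p (-1.30), let-7e-5p (-1.57), miR-221-3p (-1.20) and miR-222-3p (-1.20). Of all 620 miRNAs tested in that comparison, 34.7% were called, 13.1% as lower.

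**Figure D4:**
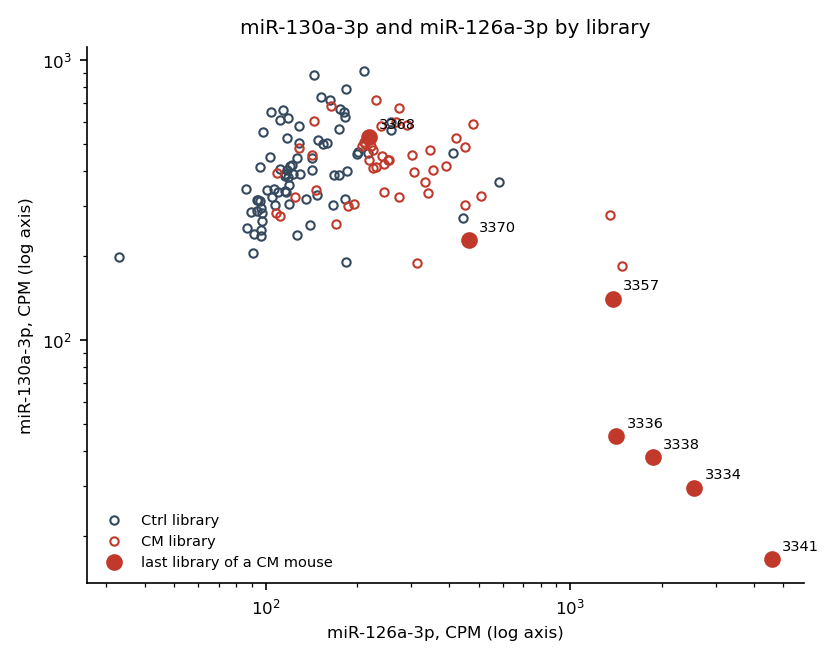
miR-130a-3p against miR-126a-3p in CPM, both on log axes, in all training libraries, with the last library of each CM mouse filled and named. The 5 last libraries with miR-126a-3p of 1377 to 4584 CPM hold the 5 lowest miR-130a-3p values, 16.5 to 140.4 CPM.

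Among the 5p arms, the values of miR-301a-5p and miR-130b-5p ran otherwise than those of their 3p arms. The ratios of 3p to 5p are descriptions, and a difference in course was not tested. miR-301a-5p, scarce in PBMC, was at 3.49 ± 1.12 CPM at month 0 and 7.46 ± 2.93 CPM in the last CM libraries (SD, n = 7), a log2 fold change of 1.27 ± 0.35 (adjusted p = 0.010). It was higher in 6 of 7 mice, and against Ctrl of the same months it was higher by 0.78 ± 0.28 (adjusted p = 0.044). The log2 ratio of 3p to 5p for miR-301a was 4.95 ± 0.50 at month 0 and 3.85 ± 0.61 in the last libraries. miR-130b-5p was at 43.3 ± 6.82 and 44.4 ± 19.7 CPM (log2 fold change 0.16 ± 0.30, adjusted p = 0.69), so that the miR-130b ratio of 3p to 5p was 2.13 ± 0.23 at month 0 and 1.14 ± 0.33 in the last libraries. In Ctrl mice this ratio also differed between month 0 (2.14 ± 0.12) and month 6 (1.56 ± 0.45), where miR-130b-5p was higher by 0.43 ± 0.14 (adjusted p = 0.043). miR-130a-5p was at 0 counts in the median last library and did not pass the filter on low counts for the comparison with month 0, although it was lower in 6 of 7 CM mice. Against Ctrl of the same months it was at -1.72 ± 0.72 (adjusted p = 0.070), beside -1.67 for miR-130a-3p. The ratio of miR-130b-3p to miR-301b-3p, products of the same intron, was 3.02 ± 0.29 at month 0 and 2.86 ± 0.54 in the last CM libraries, a difference within its spread.

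The 3 miRNAs with the overlapping seed did not share 1 course. miR-148a-3p and miR-148b-3p, abundant miRNAs at a median of 3409 and 3692 CPM, were higher in CM mice over months 1 to 6, at 0.67 ± 0.16 (adjusted p = 0.0082) and 0.77 ± 0.12 (adjusted p = 6.7e-04). miR-152-3p, at a median of 603 CPM, was not called at -0.02 ± 0.13 (adjusted p = 0.93). Already at month 0, before induction, miR-148a-3p and miR-148b-3p were at 0.57 ± 0.25 and 0.30 ± 0.15 (unadjusted p = 0.036 and 0.057 in edgeR). Neither was called there (adjusted p = 0.33 and 0.39 in edgeR). Their interactions from month 0 to month 1 were 0.12 and 0.74 (adjusted p = 0.89 and 0.12 in edgeR). To month 3 they were 0.59 and 0.66 (adjusted p = 0.40 and 0.14 in edgeR). In the last libraries miR-148b-3p was higher than at month 0 by 1.17 ± 0.25 (adjusted p = 0.0030), and miR-152-3p was at -1.03 ± 0.49 (adjusted p = 0.11). Against Ctrl of the same months, miR-152-3p was at -1.36 ± 0.52 (adjusted p = 0.052 in edgeR), beside -1.67 for miR-130a-3p. miR-148a-3p and miR-148b-3p were at 0.47 and 1.16 there. At validation point 5 miR-152-3p was at -0.81 ± 0.33 (unadjusted p = 0.022, adjusted p = 0.82 in limma), beside -0.89 for miR-130a-3p. Of this list 2 of 3 were called over months 1 to 6 and 1 of 3 in the last libraries against month 0. Of all miRNAs tested, 27.1% of 775 and 39% of 446 were called. The list had medians of 0.67 and -0.28 beside 0.02 and -0.06 over all miRNAs tested.

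The miRNAs whose course was most like each member were found by Spearman's rho over the 53 CM libraries among 331 miRNAs with a mean of 10 CPM or more. miR-130a-3p was closest to miR-125b-2-3p (rho 0.87), miR-152-3p (0.86) and miR-330-5p (0.86), and these were 0.80, 0.87 and 0.67 over the 76 Ctrl libraries. miR-130b-3p and miR-301b-3p were each nearest to the other (0.67 in CM and 0.73 in Ctrl libraries). miR-130b-3p was next to miR-130a-3p (0.64) and miR-1968-5p (0.62, but 0.01 in Ctrl libraries), and miR-301b-3p to miR-450b-3p (0.54) and miR-542-3p (0.50), products of 1 X-linked cluster. miR-301a-3p was closest to miR-15a-5p (0.79), which represses BCL2, to miR-140-5p (0.69) and to miR-17-5p (0.66) of the miR-17-92 cluster. Between miR-130a-3p and miR-301a-3p rho was 0.09 in CM and 0.48 in Ctrl libraries.

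In the validation set the family was quantified at point 5 only. The 12 libraries of that point held 1645456 to 5445215 reads, and the other 90 held 1744 to 76906, where 3 reads correspond to 50.6 to 293 CPM. Over those 90 libraries miR-130a-3p had a read in 10 of 54 CM and 5 of 36 Ctrl libraries, miR-130b-3p in 3 and 4, miR-301b-3p in 1 and 0, and miR-301a-3p in none, with no count above 3. No member passed the filter for a test there. Summed over these libraries, miR-130a-3p had 13 of 1108965 reads in CM and 6 of 1038861 in Ctrl mice, which is 11.7 and 5.78 CPM of the libraries' own reads. At point 5 it was at 43.96 to 495 CPM on that scale, so its share of the reads was lower at the other points as well as the depth. The cause was not tested, and no difference between the arms was read from these libraries. At point 5 the deposited CPM were 6.04 to 16.26 times higher than values computed from each library's own total of reads, so they cannot be set beside the training levels.

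At point 5, miR-130a-3p was at 630.0, 2253, 1846, 3679, 3083 and 1248 CPM in the CM mice 2684, 2685, 2686, 2700, 2709 and 2718. The Ctrl mice 2683, 2689, 2692, 2702, 2705 and 2720 had 2892, 4040.2, 4495, 4782, 3631 and 1642 CPM. The arms overlapped, with CM mice lower on the whole (2123 ± 1134 against 3580.4 ± 1159.6 CPM, SD, n = 6 each). The limma difference on log2(CPM + 1) was -0.89 ± 0.39 (unadjusted p = 0.031 in limma, adjusted p = 0.82), and it ranged from -1.10 to -0.58 as each mouse was left out. Males made up 4 of 6 CM and 3 of 6 Ctrl mice, and the difference was -0.94 within males and -0.39 within females. miR-130b-3p, miR-301a-3p and miR-301b-3p differed by -0.33 ± 0.30, -0.17 ± 0.39 and -0.33 ± 0.39 (adjusted p = 0.94 to 0.98). Their differences had opposite signs in the sexes, at 0.094 in females and -0.46 in males for miR-130b-3p, 0.49 and -0.59 for miR-301a-3p, and 0.70 and -0.99 for miR-301b-3p, with 2 CM and 3 Ctrl females and no test of the difference between the sexes. None of 930 miRNAs (0%) was called at this point by limma, 54 at an unadjusted p under 0.05.

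The lowest miR-130a-3p value at point 5 belonged to mouse 2684, whose miR-126a-3p was at 40098 CPM where the other 11 libraries had 936 to 2581. This library also had the lowest miR-130b-3p (996 CPM) of the 12 libraries, the highest miR-301a-3p (1227 CPM) and, at 175 CPM, the highest miR-301a-5p, which was at 0 to 36.6 CPM elsewhere. Its miR-301b-3p of 119.3 CPM lay within the range of both arms. Scaled to each library's own total of reads instead, miR-130a-3p was at 43.96 CPM in this library and at 166 to 495 CPM in the other 11.

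**Figure D5:**
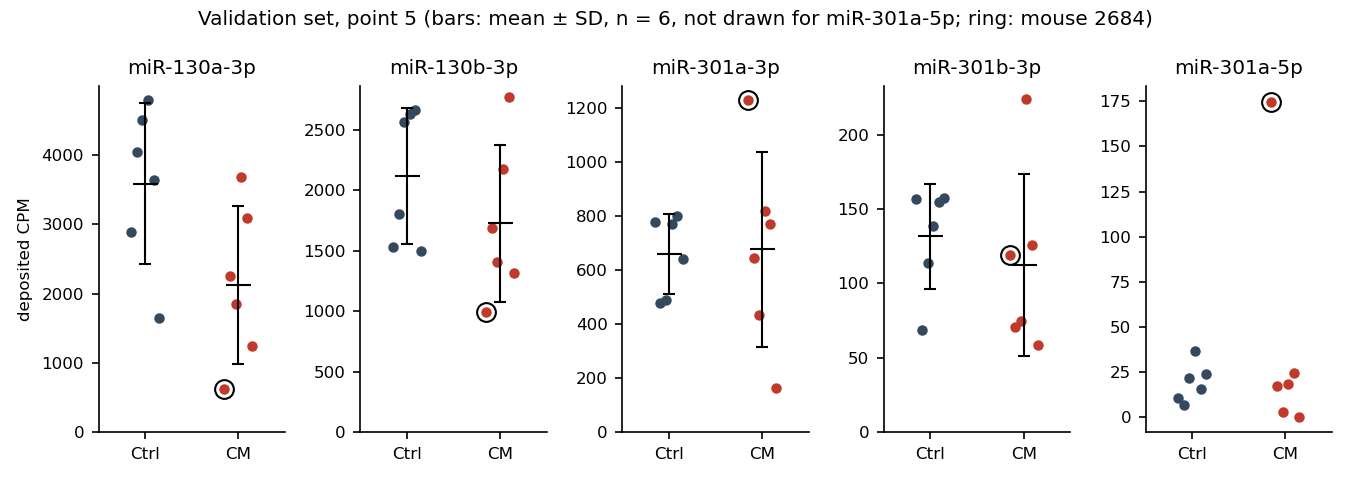
Deposited CPM of the 4 members and of miR-301a-5p at validation point 5 in 6 Ctrl (dark) and 6 CM (red) mice, with mean ± SD for the 3p arms and a ring around mouse 2684. Mouse 2684 is lowest for miR-130a-3p (630.0 CPM) and miR-130b-3p (996 CPM) and highest for miR-301a-3p (1227 CPM) and miR-301a-5p (175 CPM).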

How the data were processed

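PBMC small RNA libraries (280 ng total RNA, TruSeq small RNA) were trimmed with cutadapt and aligned with Bowtie by the authors. The sources name different builds, mm9 in the methods and GRCm38 in the submitters' processing notes (which also list SAMtools and edgeR), and the miRBase release is not settled. The deposited training table holds raw counts per mature miRNA. The deposited CPM tables, TMM-normalized by the authors in edgeR, are a CPM signal in which every value came out as whole reads (100% at a tolerance of 0.01).

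The counts were fitted in edgeR 4.0.16 (quasi-likelihood, TMM, filterByExpr) in R 4.3.3, and validation CPM in limma 3.58.1 on log2(CPM + 1) with at least 1 CPM in as many libraries as the smaller group. Calls were made at an adjusted p of 0.05 over all tested miRNAs. Alternatives were DESeq2 1.42.0, other filters, scalings, pseudocounts (0.25) and covariates, left-out mice, and, added after the data were seen, edgeR on the recovered reads. Permutation tests were exact and two-sided. The fits were tested on simulated data.

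Groups and months came from the labels, replicates are separate mice, and the G number (7 values, unexplained) was read from titles. T6p5 libraries were left out of monthly fits. Last CM libraries and month 0 came from the same 7 mice, so a blocked fit was also made, although same-mouse deviations correlated only from -0.18 to 0.13. The least different of 344 pairs of libraries of one group had a chi-square of 211 per degree of freedom, so none was counted as a duplicate. The members and all lists were chosen with earlier results of these data known. Named miRNAs are the members, their 5p arms, seed-sharing and overlapping-seed miRNAs, a progenitor list, and the 3 miRNAs most like each member. Sequences are from RefSeq. Depth limits are counting error only. The series text gives 9 CM and 7 Ctrl validation mice, and the labels, followed here, 10 and 6.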

Additional observations from a re-analysis of the deposited data

Results flagged for a closer look

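In 80 groups of 4 to 10 libraries, 1 member value stood apart from its group by Dixon's test. At month 0, before induction, miR-301a-3p was at 197 CPM in the CM mouse 3334, the highest of 7 CM mice. Chance flags about 1 in 20 such groups. Without mice 3334 and 3335, the month 0 difference of miR-301a-3p between the arms was -0.16 (adjusted p = 0.63).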

How the results depend on the processing

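The deposited counts leave miR-301b-3p and the 5p arms with few reads, which limits their precision. Most values kept their direction and side of the threshold. At month 1, the number of members called went from 1 to 0 with no filter on low counts, with sex or the G number as covariates, in 1 fit over all training libraries with or without the G number, and on the deposited CPM plus 1 or 0.25; leaving out single mice gave 0 to 1. miR-301b-3p was at -0.51 to -0.31 where its call was lost, and the share of all miRNAs called went from 27.5% to 1.15% with the G number and 5.97% with no filter, and stayed at 13.3% to 25.1% in the other planned fits named here. At month 2 it went from 0 to 1 in DESeq2 and on the recovered reads (0 to 1 without single mice), and over the summed months to 1 in DESeq2 and in months 1 to 3 only. The share of all miRNAs called at month 2 was 22.2% on the recovered reads and 9.11% to 26.6% without single mice. DESeq2 called 97 of 481 miRNAs at month 2 and 234 of 775 over the summed months.

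For the last library against month 0, members called ranged from 1 to 3 without single mice and were 1 with no filter, where miR-301b-3p was at -0.93. The block on mouse gave -2.04 for miR-130a-3p and -0.86 for miR-301b-3p, and changed no other call, although the interaction at month 1 reversed to -0.066 for miR-130a-3p and -0.11 for miR-301a-3p, and miR-301a-3p in Ctrl mice at month 6 to -0.0001. On the deposited CPM plus 1 miR-130a-3p was at -1.95, and without single mice it ranged from -2.07 to -0.92, and miR-301b-3p from -1.04 to -0.68. Against Ctrl of the same months, members called ranged from 0 to 3 without single mice, miR-130a-3p from -2.57 to -1.54, miR-130b-3p from -0.96 to -0.69, miR-301b-3p from -0.91 to -0.61 and miR-301a-3p, never called, from -0.17 to 0.028. The share of all miRNAs called ran from 28.1% to 54.2% in the same fits. With sex as a covariate miR-301b-3p was at -0.73. Between members, months 1 to 3 gave reversals at 0.24 for miR-130a-3p minus miR-130b-3p and 0.14 for miR-130a-3p minus miR-301a-3p. In the same direction as before, and now called, were 0.42 for miR-130a-3p minus miR-301b-3p and 0.18 for miR-130b-3p minus miR-301b-3p. Without mice 3334 and 3335, miR-130b-3p minus miR-301a-3p gained a call at -0.25, and on the deposited CPM miR-301a-3p minus miR-301b-3p lost its call at 0.19.

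Other signs reversed among values that were not called, mostly within 1 SE of 0. At month 0, miR-130b-3p was at -0.015 with no filter, -0.014 with a mean count of 10 or more, -0.0004 in 1 fit over all training libraries, -0.018 there with the G number, -0.031 without mice 3334 and 3335, -0.041 on the deposited CPM plus 1 and also plus 0.25, and -0.042 on the recovered reads. miR-301a-3p was in the same fits at -0.015, -0.023, -0.0013 (without the G number), -0.16, -0.053, -0.053 and -0.058, and at -0.0035 in DESeq2. At month 1, miR-130a-3p was at -0.031 with library totals, and miR-301a-3p at 0.068 in DESeq2, 0.023 with no filter and 0.093 with sex. At month 2, miR-301a-3p was at -0.048 on the recovered reads, and miR-301b-3p at -0.027 with a mean count of 10 or more, -0.052 with sex, -0.047 without mice 3334 and 3335, -0.063 and -0.066 on the deposited CPM plus 1 and plus 0.25, and -0.15 on the recovered reads.

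At month 3, miR-130b-3p was at -0.043 with no filter, -0.088 with the G number, -0.030 in 1 fit over all libraries, -0.20 there with the G number, -0.025 without mice 3334 and 3335, and -0.0039 on the deposited CPM with either pseudocount, and miR-301a-3p at -0.31 with the G number and -0.017 on the deposited CPM with either pseudocount. At month 4, miR-130b-3p was at 0.046 in 1 fit over all libraries with the G number, and miR-301b-3p at 0.020 and 0.024 on the deposited CPM plus 1 and plus 0.25. At month 5, miR-130a-3p was at 0.027 with no filter, 0.16 with the G number and 0.0019 on the deposited CPM with either pseudocount. At month 6, the G number gave 0.63 for miR-130a-3p, 0.26 for miR-130b-3p and 0.64 for miR-301b-3p, and no filter -0.015 for miR-301a-3p. Over the summed months, miR-130a-3p was at -0.13 as a mean of log2 CPM, -0.10 as a mean of log2 deposited CPM and -0.027 without mice 3334 and 3335, miR-130b-3p at 0.065 in months 1 to 3, and miR-301a-3p at -0.0076 as a mean of log2 deposited CPM and -0.078 on the recovered reads. On the recovered reads of validation point 5 miR-301a-3p was at 0.0071.

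Leaving out single mice also took values across 0. At month 0 the ranges were -0.026 to 0.22 for miR-130a-3p, -0.034 to 0.072 for miR-130b-3p and -0.12 to 0.13 for miR-301a-3p. They were -0.18 to 0.041 for miR-301a-3p at month 1, -0.047 to 0.12 for miR-301b-3p at month 2, -0.0065 to 0.0998 for miR-130b-3p at month 3, -0.51 to 0.061 for miR-130a-3p and -0.21 to 0.047 for miR-130b-3p at month 4, and -0.14 to 0.11 for miR-130a-3p at month 5. At month 6 they were -0.60 to 0.039 for miR-130a-3p, -0.22 to 0.064 for miR-130b-3p, -0.093 to 0.12 for miR-301a-3p and -0.33 to 0.0081 for miR-301b-3p. The sum of months gave -0.064 to 0.022 for miR-130b-3p, Ctrl month 6 -0.024 to 0.14 for miR-301a-3p, and validation point 5 -0.39 to 0.19 for miR-301a-3p. The interactions ran from -0.19 to 0.098 for miR-130a-3p and -0.20 to 0.10 for miR-301a-3p at month 1, and from -0.093 to 0.058 for miR-130b-3p and -0.031 to 0.17 for miR-301b-3p at month 3. The cause of these changes was not tested.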
